A study of Aedes aegypti with 20 samples.

Results

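Male heads were compared with female heads of the yellow fever mosquito Aedes aegypti, in 5 libraries of male heads and 5 libraries of female heads. These 10 libraries were chosen by their labels out of the 20 of the series, and the other 10 are pedicels, the antennal segment that houses the mosquito's hearing organ. All animals were of the Liverpool genotype. The males were virgin, the females had not taken blood, and both were entrained for 2 days and flash-frozen at ZT12 (zeitgeber time, in hours from lights on). Tissue was homogenised, RNA was extracted with phenol and chloroform, and 5 repeats were collected of each sex and tissue. The labels do not say how many animals a repeat pooled, whether the antennae stayed on the heads, or whether the repeats came from separate sets of animals. The p-values therefore measure the spread between these libraries, which may in part be technical. The deposited table calls the head libraries brain, and they are called heads here, as in the labels.

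The mosquito head carries the brain, the compound eyes, the antennae and palps with their smell and hearing neurons, and the mouthparts. Males and females differ in many of these organs. Females alone bite and take blood, and males have more plumose antennae, with which they hear the wing tone of females. In this species sex is set by a male-determining locus on a chromosome that otherwise resembles its partner, and sex-specific splicing of regulatory genes carries the signal to the tissues.

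The genes are given by their identifiers. Names were looked up for the 19804 gene IDs of the deposited table in RefSeq's list for assembly AaegL5.0, and 0 were found there. The labelled tissue could therefore not be checked against marker genes, gene lists that rest on names were not analysed here, and no function, location or sequence is given for any gene. Between 5060010 estimated counts (male head 2) and 9404311 (male head 5) were summed per head library, and 13582 to 14244 gene IDs had a count in a library. The 20 most abundant genes took 33.6% to 40.2% of a library. Levels below are CPM, the counts scaled to a common library size by TMM factors (trimmed mean of M values). Calls rest on an adjusted p under 0.05 in edgeR's quasi-likelihood test.

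Male head 2 and female head 3 stood apart from the other libraries of their sex. On the first principal component of log2 CPM, with 56.0% of the variance, the other 4 male heads scored 33.4 to 47.8 and male head 2 scored 16.3. The other 4 female heads scored -50.6 to -36.6 on it, and female head 3 scored -11.6. On the second component, with 13.3% of the variance, male head 2 scored -44.6 and female head 3 scored 33.2, while the remaining libraries lay between -11.4 and 14.0.

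On average both libraries still ranked their genes more like their own sex than like the other, but by a small margin. The rank correlation of male head 2 over the genes tested averaged 0.961 with the other male heads and 0.949 with the female heads. That of female head 3 averaged 0.962 with the other female heads and 0.957 with the male heads. Its highest single correlation was with a male head, at 0.96504, against at most 0.96496 with a female head. The other 8 libraries averaged 0.973 to 0.980 with their own sex and 0.923 to 0.943 with the other sex. Male head 2 had the lowest total of the 10 heads, whereas female head 3, at 7825766 counts, was among the deeper ones. The counts of calls, the sex-limited counts, the usage calls and the test or fold of each named gene are therefore given with and without these 2 libraries. The counts of separated genes, the median levels, the order of the female heads in sex-limited genes, the pedicel levels and calls of genes called with 10 heads, and the interaction are given with both libraries kept.

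**Figure D1:**
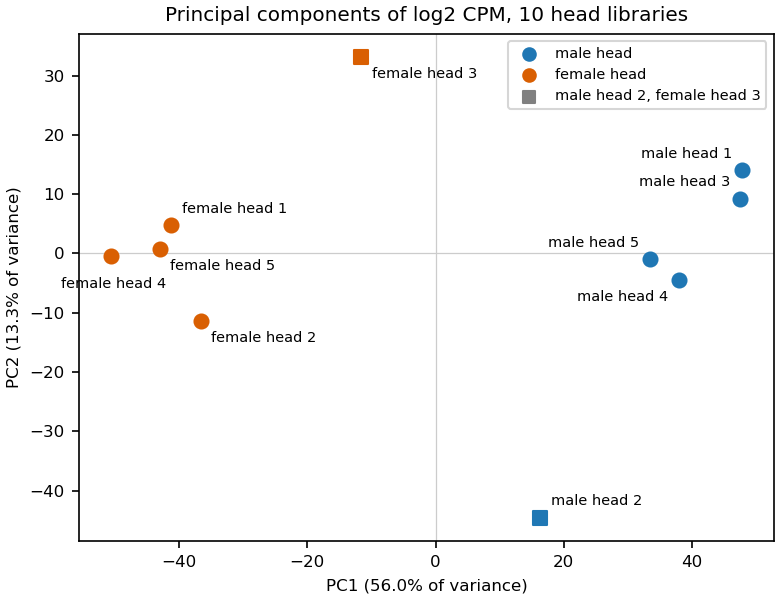
Scores of the 10 head libraries on the first principal component of log2 CPM (horizontal axis, 56.0% of the variance) and the second (vertical axis, 13.3%), with male heads in blue, female heads in orange and squares for male head 2 and female head 3. The sexes fall on opposite sides of 0 on the first component, and the squares lie nearest to 0 on it and farthest out on the second.

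With all 10 heads in the fit, more genes were called higher in females, and more of the large differences were toward females. Without male head 2 and female head 3, this held only for calls of at least 4-fold, as given below. Of 10454 genes tested in the 10 heads, 469 were higher in males (4.49% of those tested) and 1028 were higher in females (9.83%), together 14.3%. Calls of at least 2-fold numbered 186 higher in males and 439 higher in females. Calls of at least 4-fold numbered 28 and 133 in the same order, and calls of at least 16-fold numbered 9 and 59. The median size of a call was 0.83 on the log2 scale among genes higher in males and 0.89 among genes higher in females, against a median absolute log2 fold of 0.21 over all genes tested. In whole heads, fewer cells of a type and less RNA per cell cannot be told apart.

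All 5 male heads lay above all 5 female heads in 245 genes (2.34% of those tested), and all 5 female heads lay above all 5 male heads in 774 (7.40%). Of the 469 genes called higher in males, 177 were separated in this way and 292 overlapped. Of the 1028 genes called higher in females, 719 were separated and 309 overlapped. The called genes were of ordinary abundance. Those higher in males had a median of 23.8 CPM in male heads, against 12.5 CPM in female heads, and those higher in females had a median of 11.3 CPM in male heads, against 26.6 CPM in female heads. Over all genes tested the median in male heads was 15.8 CPM, against 16.1 CPM in female heads.

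The balance between the directions rested on the scaling and on single libraries. With library totals in place of TMM, under which the median log2 fold of all genes was 0.10 in place of -0.01, 1271 genes were called higher in males and 826 higher in females, so that 60.6% of calls were higher in males, against 31.3% with TMM. Without male head 2, 1276 genes were called higher in males and 1443 higher in females. Without female head 3 these numbered 1605 and 1534 in the same order. Without any one of the other 8 heads, calls higher in males numbered 174 (without male head 3) to 306 (without female head 2). In each case this was more than 1.5 times below 469. Calls higher in females then numbered 716 (without female head 4) to 976 (without female head 2), also fewer than 1028.

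**Figure D2:**
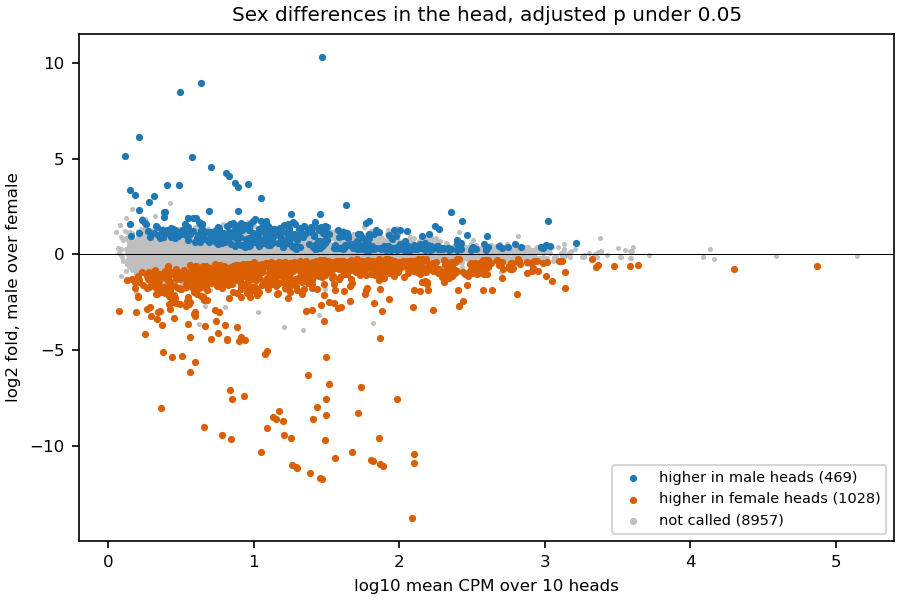
The log2 fold of male over female heads (vertical axis) of each of 10454 genes against the log10 of its mean CPM over the 10 heads (horizontal axis), with genes called higher in male heads in blue (469), genes called higher in female heads in orange (1028) and the others in grey. Fitted folds of genes with no count in one sex depend on the prior count, and the lower edge holds the genes found in female heads alone.

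Among called genes with at least a 2-fold difference and no overlap, the most abundant in male heads was AAEL020512. It had 1651, 2153, 1007, 1402 and 1853 CPM in male heads 1 to 5, against 596, 349, 347, 556 and 596 CPM in female heads 1 to 5. The lowest male head stood well above the highest female head. Its log2 fold was 1.72 (SE 0.23, adjusted p = 0.000611 in edgeR's quasi-likelihood test), and 1.51 (SE 0.24) without male head 2 and female head 3. The next was AAEL004585, with 361, 566, 235, 381 and 540 CPM in male heads, against 156, 93.8, 57.2, 157 and 148 CPM in female heads. Its libraries did not overlap either, although male head 3 and female head 4 were close to each other. Its log2 fold was 1.77 (SE 0.31, adjusted p = 0.00354, edgeR), and 1.47 (SE 0.28) without the 2 libraries. For both genes male head 2 was the highest male head and female head 3 the lowest female head, so these libraries widened the difference.

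Their levels in the pedicels, from libraries the head comparison does not use, overlapped between the sexes. AAEL020512 averaged 168 ± 109 CPM over the 5 male pedicels, against 164 ± 112 CPM over the 5 female ones (SD), at a log2 fold of 0.04 (SE 0.52). AAEL004585 averaged 56.5 ± 36.5 CPM over the male pedicels, against 43.5 ± 29.0 CPM over the female ones, at a log2 fold of 0.38 (SE 0.52). Their sex differences in the head were not called different from those in the pedicel, with a log2 interaction of 1.71 (SE 0.60, adjusted p = 0.0666, edgeR) for AAEL020512 and 1.42 (SE 0.62, adjusted p = 0.147, edgeR) for AAEL004585.

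In female heads the most abundant gene of this kind was AAEL006582, with 608, 565, 551, 797 and 651 CPM in male heads, against 2370, 1261, 2263, 2563 and 2066 CPM in female heads. The groups were far apart, with female head 2 the lowest female head. Its log2 fold was -1.73 (SE 0.18, adjusted p = 7.43e-05, edgeR), and -1.65 (SE 0.23) without male head 2 and female head 3. AAEL026217 had 565, 511, 588, 713 and 694 CPM in male heads, against 1938, 917, 1862, 1879 and 1453 CPM in female heads. Female head 2 was again the lowest female head and the only one within 1.5 times of a male head. This gave a log2 fold of -1.39 (SE 0.19, adjusted p = 0.000601, edgeR), and -1.26 (SE 0.23) without the 2 libraries. Both genes were also called higher in females in the pedicels, at a log2 fold of -1.31 (SE 0.18) for AAEL006582 and -1.07 (SE 0.22) for AAEL026217.

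The largest difference toward males was that of AAEL022711, which in the head was found almost entirely in males. It had 54.5, 73.7, 48.2, 58.4 and 57.8 CPM in male heads, 2032 counts in all, and a single count in female heads, in female head 3 (0.129 CPM). The highest male head was male head 2. The ratio of levels was 2057, with a 95% counting interval of 369 to 81285, and the adjusted p was 3.40e-09 with 10 heads and 9.43e-08 without male head 2 and female head 3 (edgeR). The counting intervals and floors given here cover counting error only.

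AAEL023202 came second among the male-higher genes of at least 10 CPM. It had 10.8, 20.3, 10.9, 12.1 and 7.70 CPM in male heads, against 2.97 CPM in female head 3 and no count in the other 4 female heads. No count means that the rounded sum over the gene's transcripts is 0. The log2 fold was 4.23 (SE 0.81, adjusted p = 0.00564, edgeR), and the adjusted p was 4.92e-06 without the 2 libraries, where all female heads were at 0. In this gene, too, male head 2 was the highest male head, and female head 3 was the one female head with counts.

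The largest difference toward females was that of AAEL010235. It had no count in any male head, against 184, 236, 142, 442 and 218 CPM in female heads, 8668 counts in all. Female head 4 was the highest and female head 3 the lowest. Against a floor of 3 counts over the 5 male heads it was at least 2854-fold lower in males (adjusted p = 7.47e-05 with 10 heads and 0.00135 without male head 2 and female head 3, edgeR). AAEL000533 had no count in male heads either, against 60.5, 50.9, 29.1, 102 and 53.8 CPM in female heads. It was at least 694-fold lower in males (adjusted p = 0.000183 with 10 heads and 0.000385 without the 2 libraries, edgeR), with the same highest and lowest female heads.

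Sex-limited genes were few, and most of them were found in females. Among called genes that averaged at least 1 CPM in the sex with more of them, 2 had no count in any female head and 12 had no count in any male head. Allowing at most 3 counts over the 5 libraries of the other sex gave 5 genes limited to males and 30 limited to females. With the minimum at 10 CPM no gene limited to males was left, whereas 10 limited to females were. Without male head 2 and female head 3, genes with no count in the other sex numbered 4 in males and 15 in females, and those with at most 3 counts numbered 6 and 38 in the same order. Leaving out male head 5 alone gave 22 genes with no male count in place of 12, and leaving out female head 2 or female head 3 alone gave 4 genes with no female count in place of 2.

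The genes with no female count were AAEL020474 and AAEL025777. AAEL020474 had 11.0, 8.25, 5.85, 8.85 and 9.30 CPM in male heads and was at least 104-fold higher in males (adjusted p = 1.67e-05 with 10 heads and 9.57e-06 without the 2 libraries, edgeR). AAEL025777 had 4.87, 6.24, 9.08, 4.73 and 6.20 CPM in male heads and was at least 73.6-fold higher in males (adjusted p = 5.21e-05 and 2.71e-05 in the same order, edgeR). For both genes male head 2 lay inside the range of the other male heads, and female head 3, like every other female head, was at 0. In pedicels they were not strictly limited. AAEL020474 had 441 counts in male pedicels and 3 in female pedicels, and AAEL025777 had 143 counts in male pedicels and 3 in female pedicels.

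The 12 genes with no male count had means of 4.58 to 244 CPM in female heads, with a median of 37.9 CPM, and were at least 53.0-fold to at least 2854-fold lower in males. After the genes described above, the most abundant of them were AAEL000726 and AAEL000749. AAEL000726 had 48.8, 44.1, 32.5, 103 and 58.9 CPM in female heads and was at least 671-fold lower in males (adjusted p = 0.000176 with 10 heads and 0.00116 without the 2 libraries, edgeR). AAEL000749 had 40.7, 32.1, 35.6, 93.4 and 43.2 CPM in female heads and was at least 576-fold lower in males (adjusted p = 0.000215 and 0.00391 in the same order, edgeR). In both genes female head 4 stood far above the other female heads.

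That order of the female heads recurred over the whole set. Of the 30 genes with at most 3 male counts, 28 had their highest value in female head 4, at a median of 172% of their mean over the 5 female heads. Female head 3 was the lowest female head in 25 of the 30, at a median of 52.3% of that mean. The other female heads had medians of 82.3% (female head 1), 97.5% (female head 2) and 88.6% (female head 5). No male head stood out in this way in the 5 genes limited to males, where the medians ran from 82.3% (male head 3) to 100.3% (male head 2). Over all 30 genes and 5 male heads, the male counts summed to 36. How often female head 4 was the highest female head over all genes tested is not given here.

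Sex-limited genes of the head had the same bias in the pedicel. All 35 genes with at most 3 counts in the other sex, tested there or not, had the higher mean CPM in the pedicels of the same sex. Of the 5 genes limited to males with at most 3 female counts, 4 were tested in the pedicels, and all 4 were called higher in males there, against 14.0% of all genes tested in the pedicels. Of the 30 limited to females, 27 were tested and all 27 were called higher in females, against 15.8% of all genes. A gene that passes the filter on low counts through 1 sex alone is bound to differ, so these counts only describe the tested genes. The median level of the 12 genes with no male count in the head was 0.162 CPM in male pedicels, against 27.4 CPM in female pedicels, and 1 of the 12 had no count in male pedicels either.

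**Figure D3:**
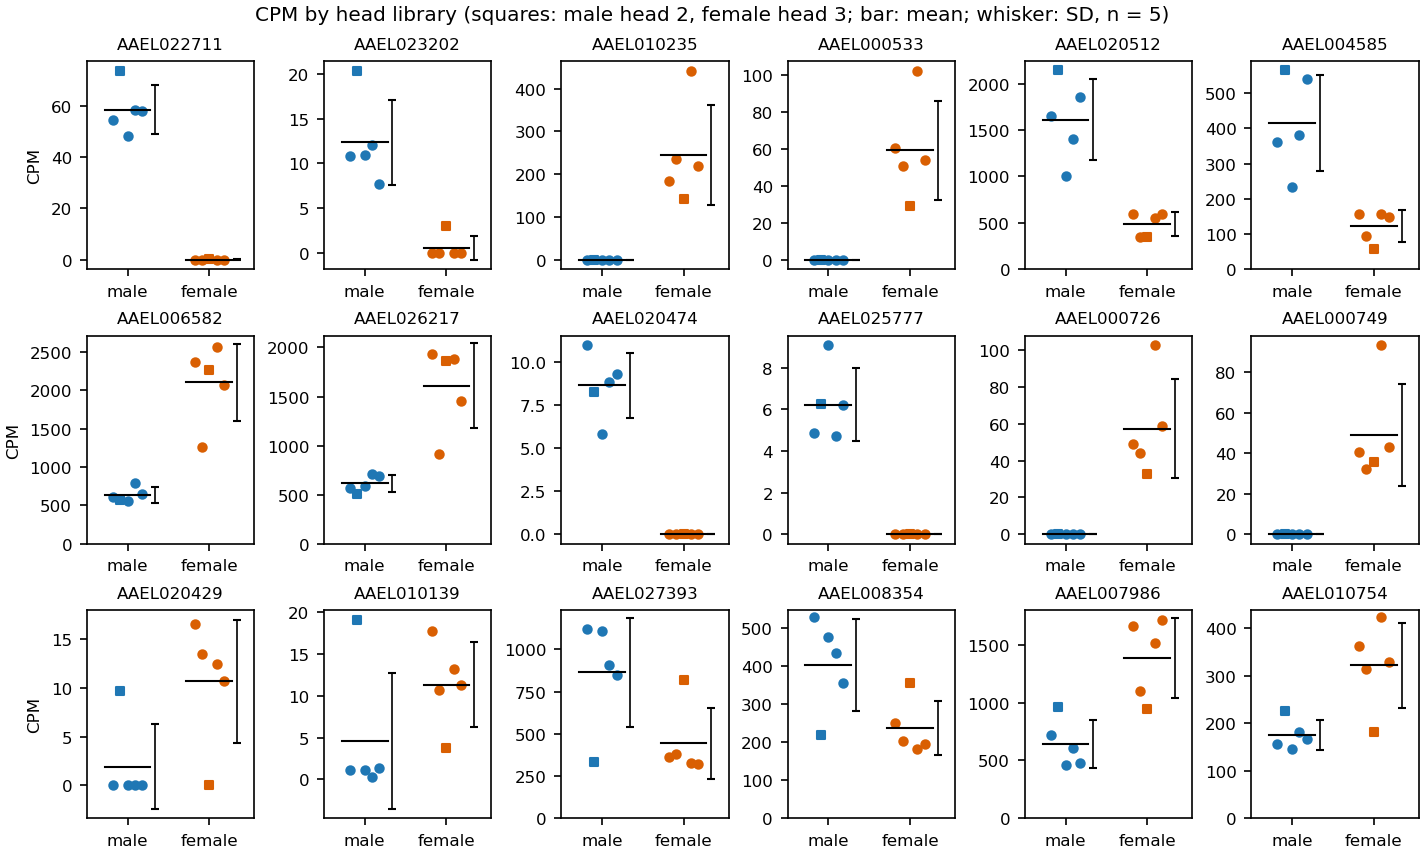
CPM (vertical axes, linear) of 18 genes in male heads (blue, left) and female heads (orange, right), with a point per library, a bar at the mean, a whisker of 1 SD (n = 5) and squares for male head 2 and female head 3. In AAEL020474, AAEL025777 and AAEL010235 the squares keep to their own sex, whereas in AAEL020429, AAEL010139, AAEL027393 and AAEL008354 the squares lie at or near the level of the other sex.

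Leaving out male head 2 and female head 3 together changed the count of calls more than any other setting tried. The 8 remaining heads gave 4028 calls among 10506 genes tested (38.3%), of which 2109 were higher in males (20.1%) and 1919 were higher in females (18.3%). The common biological coefficient of variation, edgeR's measure of spread between libraries of a group, was 0.189 with 10 heads and 0.140 with 8. Calls of at least 2-fold numbered 668 higher in males and 600 higher in females, and calls of at least 4-fold numbered 90 and 177. Calls of at least 16-fold stayed close to those of the 10 heads, with 9 toward males and 68 toward females.

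The 8 heads kept nearly all calls of the 10. Of the 469 genes higher in males, 467 were called higher in males again, and of the 1028 higher in females, 1009 were called higher in females again. The remaining 2 and 19 were no longer called. The gain was larger toward males, with 1642 genes called higher in males and 910 called higher in females with 8 heads only.

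The 2 libraries were often the ones of their sex nearest to the other sex. Of the 469 genes called higher in males with 10 heads, male head 2 was the lowest male head in 291 (62.0%) and female head 3 was the highest female head in 340 (72.5%). Of the 1028 genes called higher in females, male head 2 was the highest male head in 469 (45.6%) and female head 3 was the lowest female head in 518 (50.4%). Female head 2 was the lowest female head in another 371 of these (36.1%). The same tally over all genes tested is not given here, so these shares have no base to be read against.

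To place each library without using it to pick the genes, genes were called from the other 9 heads. The library was then set, gene by gene, on a scale on which the mean log2 CPM of the other female heads is 0% and that of the other male heads is 100%. On genes higher in males by less than 2-fold, male head 2 lay at a median of 2.41% (850 genes), and at 3.32% on those of 2-fold to 4-fold (381 genes), which is close to the female mean. On genes higher in males by 4-fold to 16-fold it lay at 102.5% (27 genes), and on those of 16-fold or more at 103% (7 genes), which is close to the male mean.

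Female head 3 lay at 95.4% on genes higher in males by less than 2-fold (1064 genes) and at 92.3% on those of 2-fold to 4-fold (468 genes), close to the male mean. It lay at 70.3% on those of 4-fold to 16-fold (47 genes) and at 3.54% on those of 16-fold or more (10 genes). In the smallest differences toward males both libraries thus lay with the other sex, and in the largest both lay with their own. The class of the largest folds holds few genes.

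On genes higher in females the shift was partial. Male head 2 lay at 47.3%, 74.7%, 75.9% and 100% over the same 4 classes from small to large folds. Female head 3 lay at 63.9%, 35.1%, 19.8% and 14.9%. Female head 2 was shifted too, to a lesser degree, at 31.7%, 33.6%, 26.7% and -1.08% on genes higher in females and at 36.3% on genes higher in males by less than 2-fold. The 4 other male heads lay between 79.2% and 118% and the 3 other female heads between -31.3% and 5.49% in every class of either direction. These heads were placed on other and smaller gene sets, called with male head 2 and female head 3 both in the fit. On genes higher in males by less than 2-fold, the sets held 70 genes (female head 4) to 117 genes (male head 5). On genes higher in females, female head 4 lay beyond the female mean in each of the 4 classes, at -31.3%, -24.4%, -16.3% and -16.1%. Its high level was thus not confined to the sex-limited genes.

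**Figure D4:**
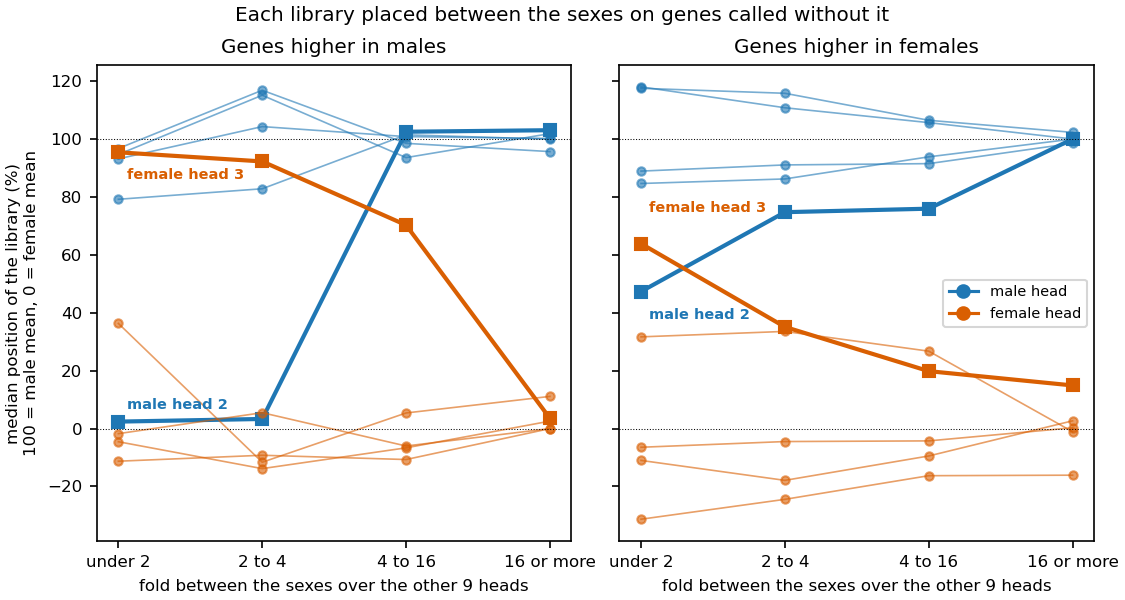
Median position of each head library (vertical axis, %, with 0 at the mean of the female heads and 100 at the mean of the male heads) on genes called from the other 9 heads, by size of the fold (horizontal axis, classes), for genes with more in males (left) or in females (right). Male head 2 and female head 3 (squares, bold lines) lie near the mean of the other sex on genes higher in males by less than 4-fold, at 2.41% and 95.4% in the first class, and lie with their own sex at 16-fold or more.

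The 2 libraries were also compared directly. Of 656 genes higher in males by at least 2-fold over the 8 other heads, male head 2 was above female head 3 in 14.8%. Of 586 genes higher in females by at least 2-fold, female head 3 was above male head 2 in 77.5%. At 4-fold or more, male head 2 was the higher in only 36.0% of 86 genes higher in males. Its position of 102.5% at 4-fold to 16-fold rests on 27 genes that were called with female head 3 in the fit. Female head 3 was the higher in 83.8% of 167 genes higher in females by at least 4-fold. At 16-fold or more, male head 2 was the higher in 9 of 9 genes higher in males, and female head 3 was the higher in 59 of 65 genes higher in females. Over all 10423 genes tested in both fits, male head 2 was the higher in 51.0%.

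Genes limited to the other sex were mostly at 0 in male head 2, and 2 of 4 had a count in female head 3. Of 15 genes with no count in the 4 other male heads and called higher in females without male head 2, 3 had a count in male head 2, with 177 counts in all. The 4 genes for female head 3 had no count in the 4 other female heads and were called higher in males without it. The 2 with a count in it were AAEL023202, with 23 counts, and AAEL022711, with 1, together 24. Counts of this kind were not particular to these 2 libraries. Male head 5, which the components did not set apart, had counts in 9 of 21 such genes, with 69 counts in all. Male head 1 had counts in 2 of 14 (93 counts), male head 4 in 1 of 13 (1 count) and male head 3 in 0 of 12. Female head 2 had counts in 2 of 4 (9 counts) and female head 5 in 0 of 2. Female heads 1 and 4 had counts in 1 of 3 each (16 and 33 counts). The levels differed more than these numbers of genes. The highest such gene reached 338% of the mean of the other sex in male head 2 and 283% in female head 4. In the remaining libraries it reached at most 52.8% (male head 5), with 24.0% in female head 3. What set male head 2 and female head 3 apart was not tested.

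The genes whose fold moved most without the 2 libraries, among those of at least 10 CPM and not already described, were AAEL020429 and AAEL010139. AAEL020429 had 9.66 CPM in male head 2 and no count in the other 4 male heads, against 16.6, 13.5, 0, 12.5 and 10.8 CPM in female heads 1 to 5. Male head 2 thus lay near the level of 4 female heads, and female head 3 had no count, like 4 male heads. The log2 fold was -2.75 (SE 1.29, adjusted p = 0.172, edgeR) with 10 heads, and the adjusted p was 2.58e-06 with 8, where all male heads were at 0.

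AAEL010139 had 1.11, 19.1, 1.08, 0.305 and 1.40 CPM in male heads, against 17.8, 10.7, 3.75, 13.2 and 11.4 CPM in female heads. Male head 2 was the highest of all 10 heads and female head 3 the lowest female head. Its log2 fold was -1.45 (SE 0.87, adjusted p = 0.279, edgeR) with 10 heads and -3.67 (SE 0.30, adjusted p = 6.54e-06, edgeR) with 8. In the pedicels neither gene was called, at a log2 fold of -0.06 (SE 0.82) for AAEL020429 and -1.14 (SE 0.79) for AAEL010139.

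The same pattern is seen at high levels in genes picked for it after their values were seen, the most abundant of those at least 2-fold apart over 8 heads in which the 2 libraries had the opposite order. AAEL027393 had 1122, 332, 1109, 907 and 850 CPM in male heads, against 363, 378, 821, 329 and 323 CPM in female heads. Male head 2 was at the level of 4 female heads and female head 3 near that of 4 male heads. The log2 fold was 0.96 (SE 0.35) with 10 heads and 1.54 (SE 0.10) with 8. AAEL008354 had 527, 219, 474, 432 and 355 CPM in male heads, against 251, 202, 355, 182 and 193 CPM in female heads. Here too male head 2 lay among the female heads, and female head 3 was level with male head 5. Its log2 fold was 0.76 (SE 0.25) with 10 heads and 1.13 (SE 0.14) with 8.

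Of the genes higher in females picked in the same way, AAEL007986 had 721, 961, 458, 606 and 478 CPM in male heads, against 1668, 1103, 945, 1516 and 1716 CPM in female heads. Male head 2 was just above female head 3, and no other libraries overlapped. The log2 fold was -1.11 (SE 0.23) with 10 heads and -1.39 (SE 0.19) with 8. AAEL010754 had 156, 227, 146, 181 and 167 CPM in male heads, against 363, 314, 181, 424 and 328 CPM in female heads. Male head 2 was the highest male head, above female head 3, and female head 3 was level with male head 4. Its log2 fold was -0.88 (SE 0.20) with 10 heads and -1.12 (SE 0.10) with 8.

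The sex differences of the head were next set beside those of the 10 pedicel libraries, which have a larger spread (coefficient of variation 0.348). The pedicel libraries were also less even in composition than the heads. Their 20 most abundant genes took 29.4% (male pedicel 5) to 71.7% (male pedicel 4) of a library. Their TMM factors ran from 0.581 (male pedicel 4) to 1.54 (male pedicel 5). Of the 1028 genes higher in female heads, 1000 were tested in the pedicels, and 623 (62.3%) were called higher in females there and 29 higher in males. Of the 469 genes higher in male heads, 444 were tested, and 114 (25.7%) were called higher in males and 7 higher in females. Over all genes tested in the head, 13.5% were called higher in male pedicels and 16.1% higher in female pedicels. Among head calls of at least 4-fold, 16 of 19 genes tested and higher in males, and 104 of 116 genes tested and higher in females, were called the same way in the pedicel.

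Genes called only without male head 2 and female head 3 had a similar share of pedicel calls toward males and a lower one toward females. Of 1579 such genes higher in males and tested in the pedicels, 425 (26.9%) were called higher in males there. Of 892 higher in females, 396 (44.4%) were called higher in females there. These shares were not tested against each other.

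The sex difference in the head was called different from that in the pedicel, by the interaction of sex and tissue over all 20 libraries, in 86 of the 469 genes higher in male heads (18.3%) and in 173 of the 1028 genes higher in female heads (16.8%). Over all 11381 genes tested for it, 11.9% were called. This test uses the head libraries again. Of the 14 genes named by rule, 1 was called, AAEL022711, itself named for its fold in the head. It had 54.1, 64.8, 56.3, 53.3 and 41.2 CPM in male pedicels, against 0.497, 11.1, 1.21, 0.779 and 0.223 CPM in female pedicels. Female pedicels had counts in every library, with female pedicel 2 far above the others, whereas female heads had 1 count. The log2 interaction was 6.02 (SE 1.36, adjusted p = 0.00816, edgeR), a fitted value that depends on the prior count for female heads.

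Few genes were called for a difference in transcript usage, the share of a gene's counts given to each of its transcripts. Of 2821 genes with at least 2 tested transcripts, 6 (0.213%) were called in edgeR's diffSpliceDGE with Simes' method, and 64 had an unadjusted p under 0.05. Of the 6, 3 were also called for their level. Without male head 2 and female head 3, 33 genes of 2868 were called, 5 of them among the 6. Estimated counts divide reads among transcripts that share sequence, so these shares are less certain than gene sums.

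AAEL013431 had the lowest adjusted p. Its transcript AAEL013431-RU took 2.04%, 0.405%, 1.04%, 0% and 0% of the gene's counts in male heads, against 22.3%, 19.1%, 10.5%, 18.0% and 16.5% in female heads. Its transcript AAEL013431-RA took 71.5%, 72.5%, 78.0%, 76.1% and 79.7% in male heads, against 53.7%, 56.4%, 58.3%, 50.5% and 54.5% in female heads. The sexes did not overlap in either transcript, and female head 3 was the female head nearest to the males in both. The adjusted p of the gene was 2.25e-06 with 10 heads and 1.80e-05 with 8 (edgeR's diffSpliceDGE), and its level was lower in males at a log2 fold of -0.70 (adjusted p = 0.000401, edgeR).

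In AAEL027408 the minor transcript AAEL027408-RB had an estimated count under 1 in every male head, against 7.38%, 1.35%, 3.92%, 2.87% and 0.547% of the gene's counts in female heads. The major transcript AAEL027408-RC took 96.1% ± 1.17 in male heads, against 93.1% ± 2.23 in female heads (SD over 5 libraries), and its libraries overlapped. The adjusted p of the gene was 1.02e-05 with 10 heads and 0.000246 with 8 (edgeR's diffSpliceDGE).

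In AAEL024283 the transcript AAEL024283-RN took 0.213%, 2.01%, 0%, 0.314% and 0% in male heads, against 11.96%, 17.6%, 16.4%, 16.2% and 15.2% in female heads. Male head 2 was the highest male head, far below the lowest female head, and female head 3 was among the higher female heads. The transcript AAEL024283-RM had the larger mean share in males, 11.2% ± 7.12 against 5.30% ± 3.78 in female heads (SD over 5 libraries), and its libraries overlapped widely. The adjusted p of the gene was 0.00248 with 10 heads and 0.000638 with 8 (edgeR's diffSpliceDGE), and the gene was not called for its level (adjusted p = 0.0887, edgeR).

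AAEL010793, at a mean of 13.3 CPM, rested on few counts. Its transcript AAEL010793-RG had an estimated count under 1 in every male head, against 58.5%, 67.9%, 32.5%, 61.4% and 76.6% of the gene's counts in female heads. Its transcript AAEL010793-RE took 67.4%, 44.3%, 78.6%, 68.2% and 62.7% in male heads, against 33.6%, 23.0%, 58.2%, 24.3% and 16.9% in female heads. In AAEL010793-RE female head 3 was above male head 2, and no other libraries overlapped. The adjusted p of the gene was 0.0121 with 10 heads and 0.00754 with 8 (edgeR's diffSpliceDGE), and it was above the threshold without male head 3, 4 or 5, up to 0.0717 without male head 4.

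In the pedicels none of these 4 genes was called for usage, at an adjusted p of 1.00 for each (edgeR's diffSpliceDGE), among 10 genes called of 2737 tested. The mean share of AAEL013431-RU there was 26.1% ± 15.4 in male pedicels, against 26.8% ± 23.8 in female pedicels (SD over 5 libraries). That of AAEL024283-RN was 3.57% ± 3.74 in male pedicels, against 23.2% ± 1.22 in female pedicels. That of AAEL010793-RG was 16.5% (SD 32.2) in male pedicels, against 56.6% in female pedicels. That of AAEL027408-RB was 4.49% ± 6.11 in male pedicels, against 7.95% ± 4.80 in female pedicels. The absence of a call thus does not mean that the mean shares were equal. Whether usage differs between the tissues in its dependence on sex was not tested.

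**Figure D5:**
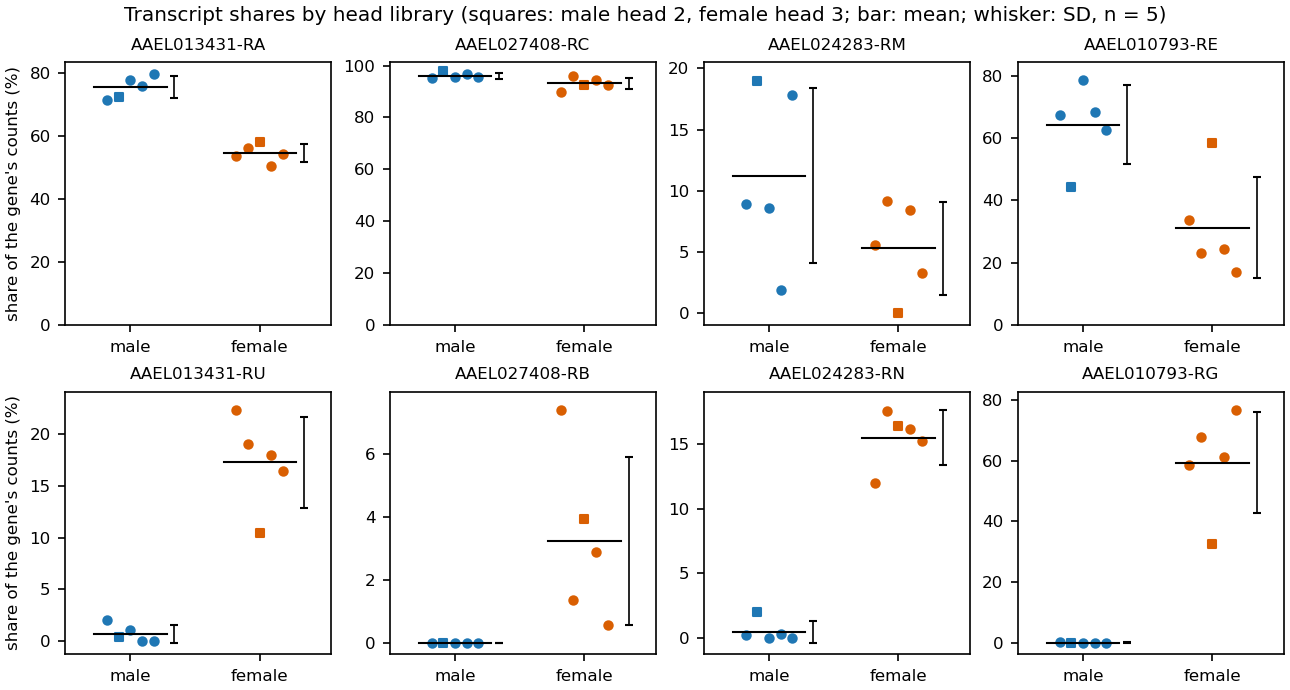
Share of the gene's counts (vertical axes, %) taken by transcripts of 4 genes in male heads (blue, left) and female heads (orange, right), with a point per library, a bar at the mean, a whisker of 1 SD (n = 5) and squares for male head 2 and female head 3. The upper row shows the transcript with the larger share in males and the lower row the one with the larger share in females, of which AAEL027408-RB and AAEL010793-RG had an estimated count under 1 in every male head.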

How the data were processed

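RNA sequencing libraries of 5 male and 5 female heads were analysed, with 10 pedicel libraries for comparison. The deposited table holds the authors' estimated counts for 34477 transcripts, not scaled between libraries, and 57.2% of its values were whole numbers. Per the submitters' processing notes, FastQC, HISAT2 and featureCounts were used. Versions, genome build, annotation and the tool behind the fractions were not given in the sources used here. How reads shared by transcripts or gene copies were divided is therefore unknown, and 263 transcripts of 244 gene IDs were equal in all libraries to a transcript under another ID, 12 of these IDs being called. None of the named genes has such a transcript.

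Counts were summed by gene ID and rounded, 82.3% of the sums being whole already to within 0.01. Genes were kept by filterByExpr (10454 of 19804), scaled by TMM (factors 0.947 to 1.07) and tested in edgeR 4.0.16 (glmQLFit with robust estimates, glmQLFTest; R 4.3.3) on the 10 heads alone, with Benjamini-Hochberg adjustment over all genes. Standard errors are log2 folds over the root of F. Log2 CPM used a prior count of 2. Pedicels were fitted alone in the same way, and the interaction over all 20 libraries. Usage was tested with diffSpliceDGE on 8725 transcripts.

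The members, lists, rules and tests were chosen with earlier results of these data known. The rule named, in each direction, 2 genes of each kind: the largest fold and the highest level (at least 10 CPM, no overlap, the level also at least 2-fold), no count in the other sex, and the fold that moved most without male head 2 and female head 3. Positive folds of the last kind fell on genes already named. For usage it named the 4 lowest adjusted p of at least 10 CPM. AAEL027393, AAEL008354, AAEL007986 and AAEL010754 were added after their values were seen. Alternatives were other scalings, filters and thresholds, DESeq2 1.42.0, limma-voom (limma 3.58.1), a replicate block, all 20 libraries, and libraries left out. No 2 head libraries of a sex agreed within sampling noise.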

Additional observations from a re-analysis of the deposited data

Results flagged for a closer look

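Single libraries lay far from the other 4 of their sex, by Dixon's criterion for 5 values, in 7 of 54 groups of named values, and chance alone sets apart about 1 group in 20. That share does not apply to this tally, since 5 of the 7 are in genes named for how male head 2 and female head 3 lay or for how their folds moved without them: AAEL020429, AAEL010139, AAEL022711, AAEL023202 and AAEL027393. Male head 2 had 9.66 CPM of AAEL020429 while the other male heads had no count, and 19.1 CPM of AAEL010139 while the other male heads had 0.305 to 1.40 CPM. Its share of AAEL024283-RN was 2.01%, against 0% to 0.314% in the other male heads. Female head 3 had 0.129 CPM of AAEL022711, a single count, and 2.97 CPM of AAEL023202, while the other female heads had none of either. It had 820.8 CPM of AAEL027393, against 323 to 378 CPM in the other female heads. The remaining library was female head 4, with 93.4 CPM of AAEL000749, against 32.1 to 43.2 CPM in the other female heads.

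The sex difference of AAEL022711 differed between head and pedicel, with a log2 interaction of 6.02 (adjusted p = 0.00816, edgeR's quasi-likelihood test, and 3.94 with adjusted p = 0.0270 in limma-voom). All 5 male heads and all 5 male pedicels had it at over 40 CPM, and 1 of 5 female heads but 5 of 5 female pedicels had a count of it.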

How the results depend on the processing

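Calls numbered 1497, with 469 higher in male and 1028 higher in female heads. Without male head 2 and female head 3 together they numbered 4028 (2109 and 1919), and with quality weights in limma-voom 3927 (1962 and 1965), where these libraries had the lowest weights (0.425 and 0.346). With all 20 libraries in 1 fit they numbered 894, of which 128 were higher in males, and at an adjusted p under 0.01, 660 (92 and 568). Calls higher in males alone moved with library totals (1271), without a filter (291) and in DESeq2 (973). Leaving out 1 library gave 895 to 3139 calls, 174 to 1605 higher in males and 716 to 1534 higher in females. The cause was not tested. The replicate block gave 2587 calls, 1200 of them higher in males. Same-numbered libraries deviated together (correlation over 0.1) in 3 of 5 pairs, with correlations from 0.019 (number 1) to 0.369 (number 3). Of 10 libraries, 5 matched best with their own number. The labels do not say whether the numbers are shared between the sexes, and they were not taken as pairs in the main fit. Whether they mark pairs was not tested.

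The 14 sex-limited genes (2 in males, 12 in females) became 35 (5 and 30) with at most 3 counts allowed. At 10 CPM 0 remained in males, and without the 2 libraries there were 4. Leaving out 1 library gave 14 to 24 in all, 2 to 4 in males and 12 to 22 in females. Usage calls, 6 in number, became 34 with a gene-level F test, 33 without the 2 libraries and 4 to 25 without 1 library. No gene named changed direction. AAEL007986 was not called with all 20 libraries (log2 fold -1.07, adjusted p = 0.185, edgeR), AAEL010754 was not called at an adjusted p under 0.01 (0.0156, edgeR), and AAEL020429, AAEL010139, AAEL027393 and AAEL008354, not called with 10 heads, were called in 3, 4, 5 and 7 of 24 settings. Depth limits genes below about 1 CPM, and a gene at 0 in one sex has a bound in place of a fold.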
